A study of Vitis rotundifolia with 36 samples.

Results

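The gene models of chromosome 4 from evm.model.chr4.160 to evm.model.chr4.225 were followed through the ripe berry of muscadine grape, a grape with thick, leathery skin. The members are all entries of the count tables whose identifier carries a number in that range, both ends included. There are 50 of them among 26394 gene models, and 16 numbers in the range have no entry. The range was chosen with the levels of these libraries already known, so the levels are given as a description and nothing is read from how many members passed a test. Below, a member is called by its number alone, so that model 175 stands for evm.model.chr4.175.

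Runs of neighbouring genes in plant genomes often arise by tandem duplication, in which a gene is copied next to itself and the copies then diverge. Copies that are still near-identical share reads, so a counter may assign a read to the wrong copy or drop it. Neighbouring genes may also share the state of their chromatin and be read out together, whether or not they are copies of one another. The identifiers could not be paired with gene names, products or coordinates (0 of 26394 matched the reference gene table of the Carlos assembly), so no function is given for any member. That the running number follows the order along the chromosome is taken from the form of the identifier and was not checked. No sequence of the members was used here.

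Mature berries of 3 cultivars of Vitis rotundifolia were separated into 4 layers, numbered 1 to 4 from the outside inwards, and polyadenylated RNA was sequenced from 3 libraries of each cultivar and layer. The labels describe the skin of Alachua, a purple cultivar, as thick, that of Granny Val, a green one, as intermediate, and that of Supreme, also purple, as thin. The series asks which genes go with skin thickness and fruit firmness. The protocol names the layers epidermis with cuticle, hypodermis, mesocarp and endocarp, while the tags of the samples say cuticle for layer 1, then exocarp, endocarp and seed, so only the numbers are used. Layers 1 and 2 are called skin and layers 3 and 4 inner. The labels do not say whether the 3 replicates came from separate vines, so a p-value reflects nothing but the spread among these libraries, which may be technical.

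Library totals ran from 19057538 to 61782400 counts. Levels are given as CPM, counts relative to the size of the library, with library sizes scaled by the trimmed mean of M values (TMM). A count of 0, read as fewer than 3 counts, allows up to 0.0423 to 0.144 CPM in a single library, a limit that covers counting error only. The layer of the 24 Alachua and Supreme libraries was checked by the levels of gene models outside the range that mark layer 1 or the inner layers in Granny Val; the 12 Granny Val libraries, which defined these gene models, were not checked. By this measure 6 libraries stand nearer to another layer than to their own: Alachua layer 2 replicate 3, layer 3 replicate 1 and layer 4 replicates 2 and 3, and Supreme layers 1 and 2 replicate 1. They are called out of place below. Counts of calls, cultivar sums of the coupled models and the skin and inner means of models 212, 214 and 224 are given with and without them. Skin and inner means of model 189 and of the coupled sum include them. Means of a single layer include them, and for models 165, 173, 174, 188, 189 and 224 those that move by over 1.5 times without them are given both ways, except in Alachua layer 4, where 1 library is left. Library names begin with a number in 25 libraries and not in the other 11; the labels do not say what the number marks, and the cultivar means below are also given within each kind, with 9 Alachua, 7 Granny Val and 9 Supreme libraries among numbered names and 3, 5 and 3 among the others. The kinds hold different layers: the names without a number are 1 library each of layers 1, 2 and 3 in Alachua, 2 of layer 2, 2 of layer 3 and 1 of layer 4 in Granny Val, and 1 of layer 3 and 2 of layer 4 in Supreme. In a cultivar mean within a kind, the kind of name and the layers it holds cannot be told apart.

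Summed over the 50 members, the level was 1019.7 ± 73.8 CPM in Alachua, 1647 ± 974 CPM in Granny Val and 1325 ± 384 CPM in Supreme (SD, n = 12 libraries each). The lowest, median and highest libraries held 901, 1004 and 1173 CPM in Alachua, 965, 1337 and 4549.5 CPM in Granny Val, with 829, 1305 and 2191 CPM in Supreme. The 3 ranges overlap, and the spread in Alachua is much narrower than in the other cultivars. Granny Val layer 4 replicate 2 alone held the highest sum; without it the Granny Val mean was 1383 ± 354 CPM (SD, n = 11). The mean was 1022 ± 78.7 CPM in Alachua, 1895 ± 1233 CPM in Granny Val and 1364 ± 433 CPM in Supreme among numbered names. Among the other names it was 1013 ± 71.1 CPM in Alachua, 1299 ± 269 CPM in Granny Val and 1209 ± 178 CPM in Supreme, with Alachua the lowest in both kinds.

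By layer, the sum in Alachua averaged 1029 ± 26.9, 1014 ± 73, 1086 ± 87.5 and 949 ± 44.4 CPM in layers 1, 2, 3 and 4 (SD, n = 3 libraries each, here and for every group of cultivar and layer). In Granny Val the sum averaged 1098 ± 80.4, 1263 ± 338, 1659 ± 445 and 2567 ± 1721 CPM in layers 1 to 4. In Supreme it averaged 1139 ± 316, 1145 ± 274, 1759.9 ± 434 and 1256 ± 233 CPM. The 4 Alachua layers lie close together, whereas the highest mean of Granny Val is in layer 4 and that of Supreme in layer 3. The 3 libraries of Granny Val layer 4 held 1689, 4549.5 and 1462 CPM, and without replicate 2 their mean was 1576 CPM, below that of layer 3. In bulk tissue, fewer cells of a type and less RNA per cell cannot be told apart, here and in every result that follows.

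The 50 members differ greatly in level. No count was found in any of the 36 libraries for 6 of them (172, 199, 201, 202, 205 and 213), which allows a level of up to 0.00181 CPM over all libraries together. Another 8 (177, 178, 180, 191, 194, 197, 203 and 216) stayed under 1 CPM in their highest group. In their highest group, 10 members averaged 1 to 10 CPM, 18 averaged 10 to 100 CPM and 8 averaged over 100 CPM. The filter on low counts was passed by 38 members; the 12 that did not are the 6 without counts and models 177, 178, 180, 191, 203 and 216. Most of the members at or near 0 lie between models 172 and 205, interleaved with some of the highest ones, models 174, 175, 184, 185 and 189.

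**Figure D1:**
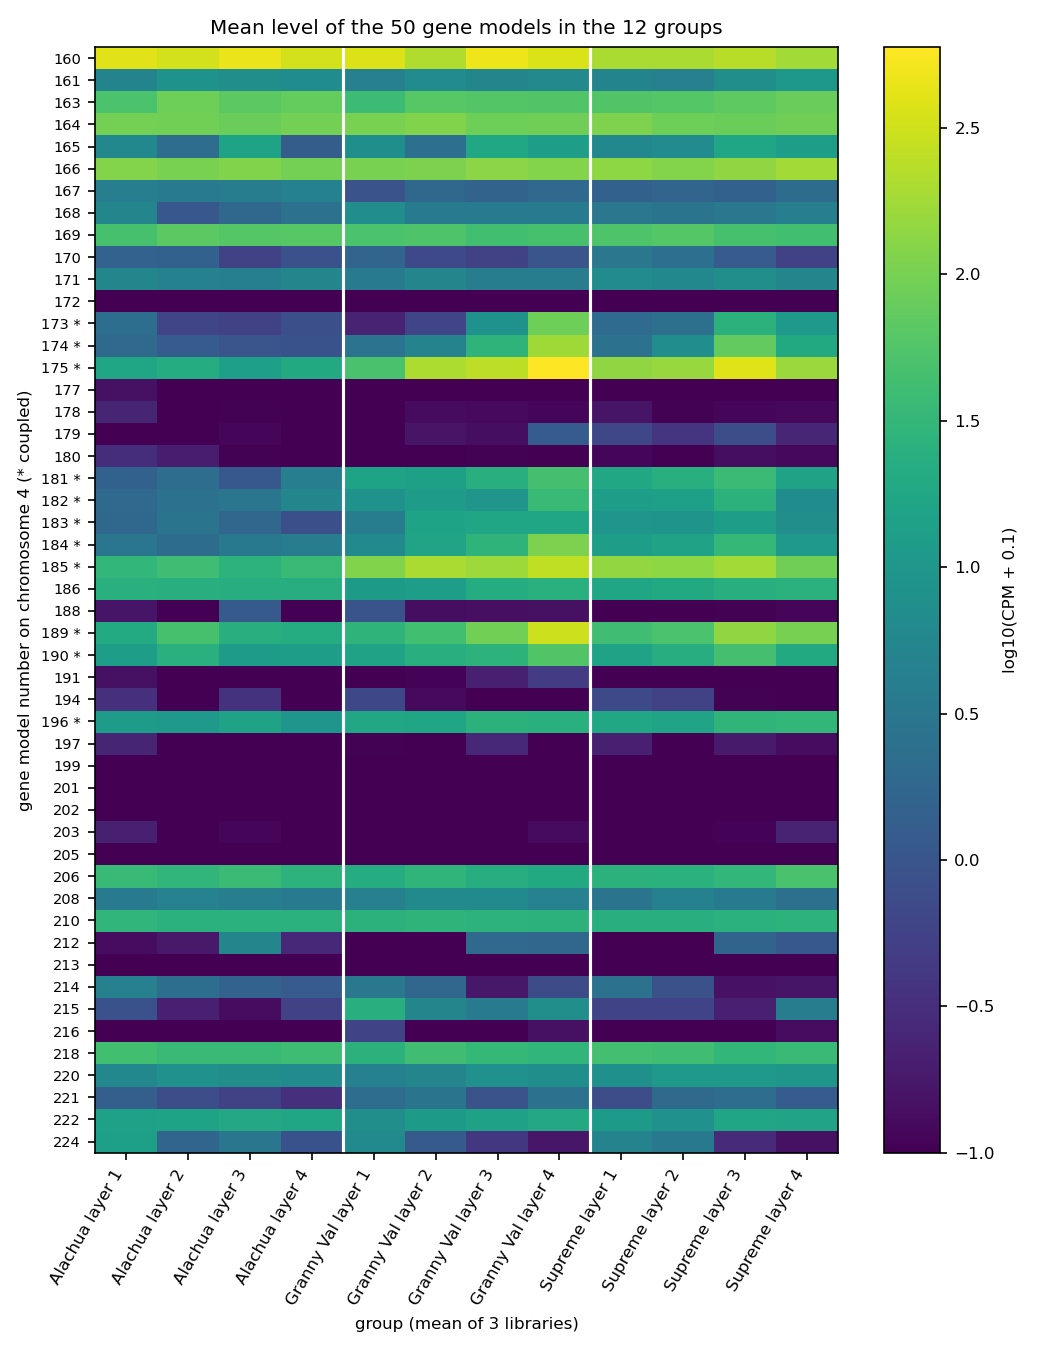
Mean level of each of the 50 gene models (rows, in the order of their numbers) in the 12 groups of cultivar and layer (columns), as colour on a scale of log10(CPM + 0.1), with asterisks at the 11 coupled models. Models 160, 164 and 166 are bright in every group, 6 models are at 0 in every group, and most models with an asterisk are darker in the 4 Alachua columns than in the others.

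Model 160 took the largest share of the members' reads, 23.7% of their summed CPM over all libraries; CPM is not divided by gene length, so shares are of reads and not of molecules. It averaged 384 ± 108 CPM in Alachua, 359.7 ± 123 CPM in Granny Val and 203 ± 64.2 CPM in Supreme (SD, n = 12 each). By layer, model 160 averaged 407 ± 135, 335 ± 112, 459.9 ± 120.1 and 335 ± 43.3 CPM in Alachua layers 1 to 4. It averaged 374 ± 58.5, 213 ± 32.4, 485 ± 145 and 366 ± 46.4 CPM in Granny Val, with 199 ± 9.65, 199.8 ± 32.3, 235 ± 84.9 and 177 ± 108 CPM in Supreme. By the mean, Supreme was the lowest cultivar for model 160 in each of the 4 layers, although the ranges of the cultivars overlap. The mean was 423 ± 93 CPM in Alachua, 366 ± 81.3 CPM in Granny Val and 226 ± 53.5 CPM in Supreme among numbered names. It was 268 ± 49.9 CPM in Alachua, 351 ± 178 CPM in Granny Val and 132 ± 35.8 CPM in Supreme among the others, so that Supreme was the lowest in both kinds and the order of Alachua and Granny Val was not the same.

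Model 166, with 9.22% of the summed CPM, averaged 119 ± 8.42, 104 ± 11.1, 115 ± 13.3 and 97.5 ± 8.65 CPM in Alachua layers 1 to 4, 104 ± 17.2, 106 ± 36.8, 130.3 ± 52.9 and 119 ± 54.7 CPM in those of Granny Val and 135 ± 13.7, 119 ± 11, 143 ± 30.3 and 179.6 ± 43.7 CPM in those of Supreme. Model 164, with 7.18%, averaged 95.9 ± 9.42, 94.9 ± 12.3, 86 ± 12.7 and 96.7 ± 16.1 CPM in Alachua, 104 ± 6.57, 114 ± 27.9, 86.5 ± 7.52 and 91.3 ± 10.2 CPM in Granny Val, with 113 ± 39.3, 88.1 ± 12.9, 86.2 ± 2.51 and 89.4 ± 19.5 CPM in Supreme. Model 166 was lowest in Alachua layer 4 and highest in Supreme layer 4, whereas model 164 varied less between the groups. For model 166 the mean was 108 ± 12.6 CPM in Alachua, 89.1 ± 18.9 CPM in Granny Val and 127 ± 11.2 CPM in Supreme among numbered names. Among the others it was 113 ± 15.3 CPM in Alachua, 151 ± 27.2 CPM in Granny Val and 196 ± 16.6 CPM in Supreme, higher in Granny Val and Supreme than among numbered names. Over the 36 libraries model 164 averaged 95.5 ± 17.5 CPM (SD), and model 210, at 26.3 ± 3.94 CPM, varied even less in proportion.

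A group of 11 members moved together from library to library: models 173, 174, 175, 181, 182, 183, 184, 185, 189, 190 and 196. They were found after the values were seen, as the members that cluster at a mean Pearson correlation of at least 0.6 in log2 CPM over the 36 libraries, and are called coupled here. Because they were chosen by this correlation, their like direction between groups is partly a matter of construction. Within the group, the correlation had a median of 0.772 over 55 pairs and ran from 0.451 to 0.94. The other 27 members that passed the filter had a median of 0.03 over 351 pairs.

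Inside each cultivar, the median correlation over pairs of the 11 models was 0.607 in Alachua, 0.742 in Granny Val and 0.756 in Supreme, over 12 libraries each. The pairs within a cultivar ran from 0.0846 to 0.93 in Alachua, -0.0542 to 0.963 in Granny Val and 0.0586 to 0.948 in Supreme. Over the cultivars together, the median was 0.74 without Granny Val layer 4 replicate 2 and 0.761 without the 6 libraries out of place. In the 25 libraries with a leading number in the name it was 0.81. All of these are parts of the 36 libraries by which the 11 models were chosen, so the values are partly a matter of construction. The libraries also share the scaling and the layers, and no test was made of the values. Pairs were also formed of members that follow each other by number among those that passed the filter, so that their numbers may lie apart. Of these 37 pairs, 24.3% were correlated above 0.6, with a median of 0.0812. Over all chromosomes this was 5.56% of 19221 pairs, with a median of 0.0864. As the range was chosen with these levels known, nothing is read from the difference.

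The coupled models are not one unbroken block. Models 179, 186, 188 and 194, which also passed the filter, lie between them by number, and they correlated with the summed level of the coupled models at 0.629 (model 179), 0.026 (model 186), −0.252 (model 188) and −0.355 (model 194). Among the coupled models themselves, that correlation, which includes each model's own share of the sum, was highest for model 175 (0.973) and model 185 (0.942) and lowest for model 196 (0.665). Models 214 and 224 ran the opposite way, at −0.650 and −0.664.

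**Figure D2:**
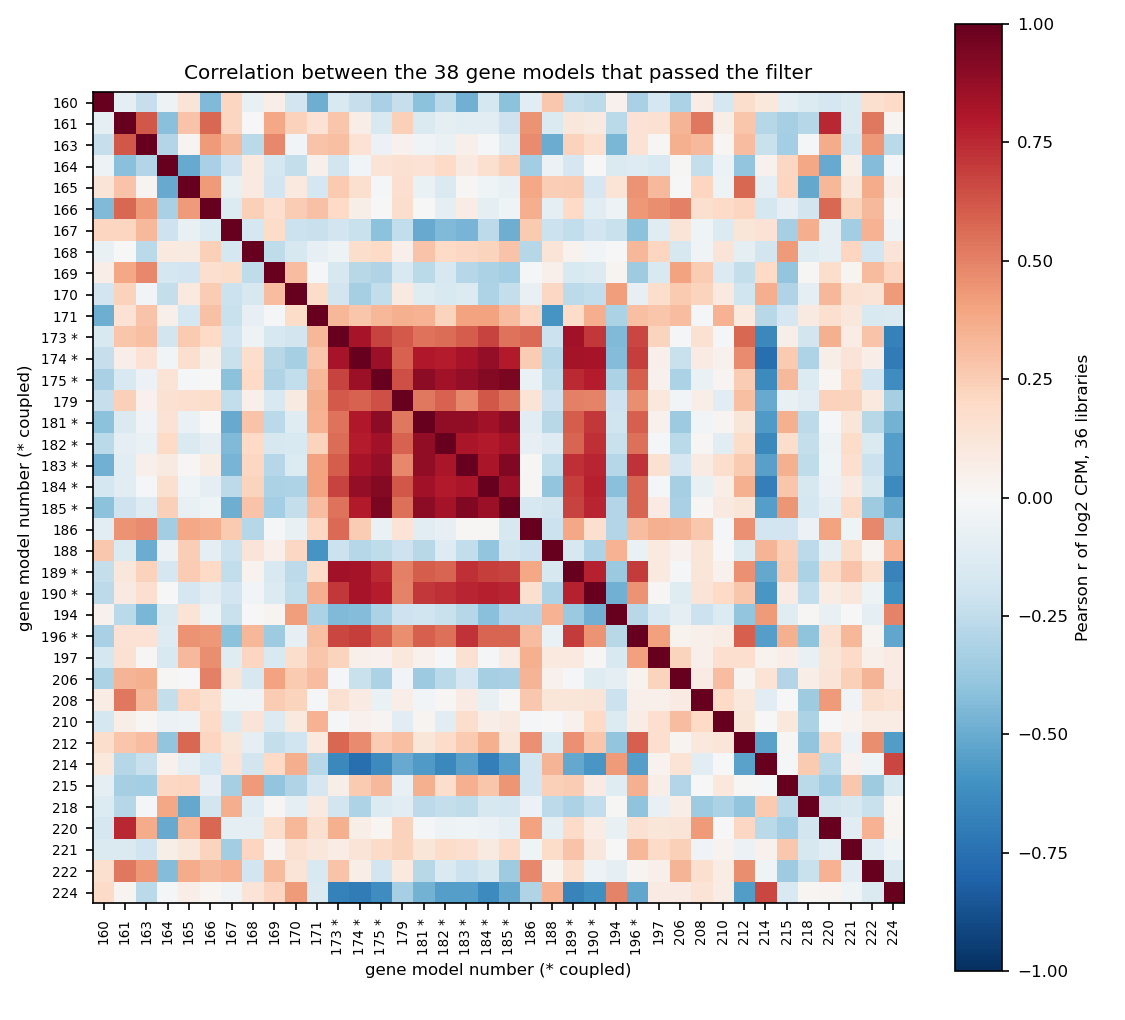
Pearson correlation of log2 CPM over the 36 libraries between the 38 gene models that passed the filter, in the order of their numbers on both axes, with asterisks at the coupled models. A red block covers models 173 to 185 and goes on to 189, 190 and 196, with a median of 0.772 among the coupled models, and models 214 and 224 give blue stripes against it.

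Summed over the 11 coupled models, the level was 119.8 ± 62.3 CPM in Alachua, 801 ± 973 CPM in Granny Val and 585 ± 364 CPM in Supreme (SD, n = 12 each). The lowest, median and highest libraries held 44.3, 112 and 228 CPM in Alachua, 176, 452 and 3688 CPM in Granny Val, with 161, 573 and 1497 CPM in Supreme. The highest Alachua libraries overlap the lowest of the other cultivars. Without Granny Val layer 4 replicate 2 the Granny Val mean was 538 ± 361 CPM (SD, n = 11), and without the libraries out of place the means were 131.7 ± 71.6 CPM in Alachua (SD, n = 8) and 614 ± 373 CPM in Supreme (SD, n = 10). The coupled models made up between 4.18% and 81.1% of the members' summed CPM in a library.

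Alachua had the lowest coupled sum by the mean among libraries of either kind of name. In libraries with a leading number, the coupled sum averaged 90.6 ± 36 CPM in Alachua (SD, n = 9), 1093 ± 1219 CPM in Granny Val (SD, n = 7) and 631 ± 409 CPM in Supreme (SD, n = 9). In the others it averaged 208 ± 26.8 CPM in Alachua (SD, n = 3), 391 ± 121 CPM in Granny Val (SD, n = 5) and 446 ± 146 CPM in Supreme (SD, n = 3). By the mean, the Alachua libraries without a number stand above those with one, and the order of Granny Val and Supreme was not the same in the kinds, which hold different layers. Whether the kind of name has a part in any of these values was not tested beyond the fits given in the closing section.

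By layer, the coupled sum was 218, 52.4 and 44.3 CPM in the 3 libraries of Alachua layer 1, 142, 228 and 101 CPM in layer 2, 47.4, 79.5 and 177 CPM in layer 3 and 112, 113 and 123 CPM in layer 4. In Granny Val it was 224, 385 and 176 CPM in layer 1, 231, 435 and 976 CPM in layer 2, 299.9, 469 and 1275 CPM in layer 3 and 927, 3688 and 520.3 CPM in layer 4. In Supreme it was 716, 313 and 216 CPM in layer 1, 161, 622 and 581 CPM in layer 2, 564, 1497 and 915 CPM in layer 3 and 658, 491 and 282 CPM in layer 4. In layers 3 and 4 each Alachua library was below each library of the other cultivars, while in layer 1 the highest Alachua library reached into both, and in layer 2 into Supreme alone. The Granny Val means go up with each layer inwards, but its libraries in neighbouring layers overlap.

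The other 39 members together averaged 899.9 ± 109 CPM in Alachua, 846 ± 135 CPM in Granny Val and 740.2 ± 60.1 CPM in Supreme (SD, n = 12 each). For them Alachua had the highest mean and Supreme the lowest, and the spans of the cultivars overlap. Among numbered names the mean was 931 ± 97.6 CPM in Alachua, 802 ± 73.9 CPM in Granny Val and 732 ± 65 CPM in Supreme. Among the others it was 805 ± 97.3 CPM in Alachua, 908 ± 184 CPM in Granny Val and 763 ± 43.8 CPM in Supreme, where Granny Val and not Alachua was highest. The wide spread of the Granny Val and Supreme totals thus lies mainly in the coupled models and less in the other members. As the coupled models were set apart by correlation over these libraries, this is partly a matter of construction.

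**Figure D3:**
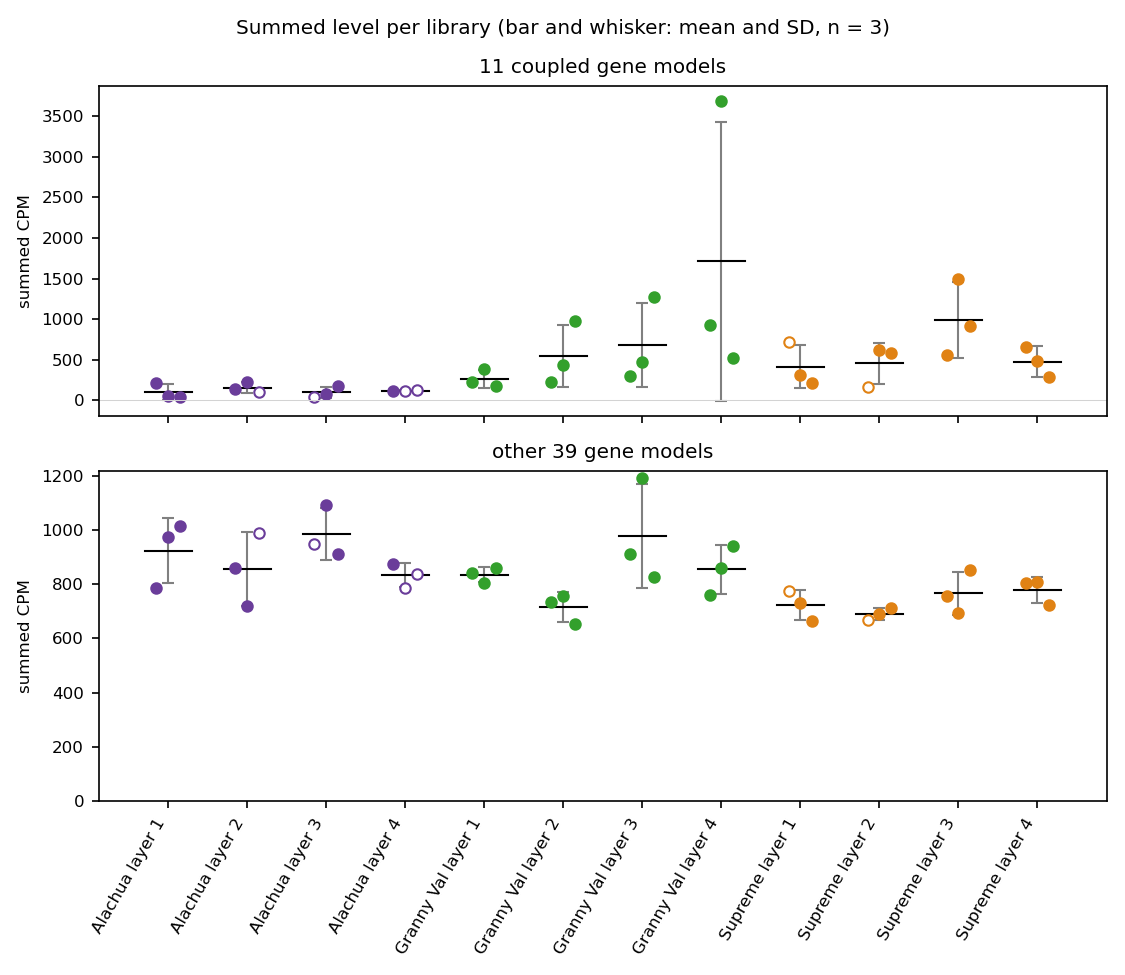
Summed CPM of the 11 coupled models (top) and of the other 39 members (bottom) in each library, with a bar at the mean and whiskers of 1 SD (n = 3); open circles are libraries out of place. The coupled sum stays between 44.3 and 228 CPM in Alachua and reaches 3688 CPM in Granny Val layer 4 replicate 2, while the other members keep to a similar level in all 12 groups.

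Model 175 carries the largest share of the coupled reads, 12.7% of the summed CPM of all members. It was found at 39.4, 7.93 and 2.1 CPM in the libraries of Alachua layer 1, 37, 18.1 and 9.69 CPM in layer 2, 4.74, 6.21 and 29.1 CPM in layer 3 and 11.4, 18.7 and 28.3 CPM in layer 4. Its level in Granny Val was 34.8, 76.5 and 37.5 CPM in layer 1, 39.7, 169.9 and 402 CPM in layer 2, 45.1, 181 and 538 CPM in layer 3 and 395, 1291 and 109 CPM in layer 4. Its level in Supreme was 264, 104 and 50.5 CPM in layer 1, 44.5, 219.7 and 212 CPM in layer 2, 172, 565 and 417 CPM in layer 3 and 286, 151 and 48.4 CPM in layer 4. Every Alachua library was below every Supreme library, whereas the highest Alachua library was above the lowest of Granny Val. The cultivar means of model 175 were 17.7 ± 12.9 CPM in Alachua, 277 ± 362 CPM in Granny Val and 211 ± 158 CPM in Supreme (SD, n = 12 each).

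Model 185 took 8.94% of the members' CPM. In Alachua it was at 66.3, 19.7 and 8.18 CPM in layer 1, 36.8, 63.2 and 23.6 CPM in layer 2, 15.6, 18.6 and 48.1 CPM in layer 3 and 23.8, 42.4 and 44 CPM in layer 4. In Granny Val it was at 95.7, 181 and 65.2 CPM in layer 1, 92.9, 153 and 349 CPM in layer 2, 107, 88.2 and 301 CPM in layer 3 and 208, 482 and 87.7 CPM in layer 4. In Supreme it was at 229.9, 107 and 95 CPM in layer 1, 56.7, 177 and 174 CPM in layer 2, 152, 201 and 192 CPM in layer 3 and 81.5, 112 and 83.6 CPM in layer 4. The Alachua libraries are mostly below those of the other cultivars and overlap them by a narrow margin. The mean over 12 libraries was 34.2 ± 18.9 CPM in Alachua, 184 ± 129.9 CPM in Granny Val and 138 ± 56.1 CPM in Supreme (SD). Alachua was the lowest by the mean for both models in either kind of library name. Among names without a number, model 175 averaged 28.9 ± 10.6 CPM in Alachua (SD, n = 3), 109 ± 66.8 CPM in Granny Val (SD, n = 5) and 124 ± 66.1 CPM in Supreme (SD, n = 3). Model 185 averaged 59.2 ± 9.74 CPM, 106 ± 27.3 CPM and 116 ± 34.6 CPM in the same cultivars and order. Numbered names gave means of 14 ± 11.8 CPM in Alachua (SD, n = 9), 396 ± 444 CPM in Granny Val (SD, n = 7) and 240.4 ± 171 CPM in Supreme (SD, n = 9) for model 175. For model 185 they gave 25.9 ± 12.5 CPM, 240.1 ± 147 CPM and 146 ± 61.4 CPM.

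Model 189, with 5.77% of the members' CPM, averaged 20 ± 12, 48.1 ± 30.6, 23.6 ± 17.5 and 21.5 ± 17.4 CPM in Alachua layers 1 to 4, 28.4 ± 3.9, 43.2 ± 9.07, 92.7 ± 16.2 and 308 ± 289.8 CPM in those of Granny Val and 41.6 ± 27.8, 51.7 ± 32.1, 141 ± 76.3 and 101 ± 23.2 CPM in those of Supreme. In Granny Val its mean goes up with each layer inwards, and in Supreme it is highest in layer 3. In Alachua the mean is highest in layer 2, where replicate 2 held 82.3 CPM. Replicate 1 of Alachua layer 4, the only library there not out of place, held 41.1 CPM. Without the library out of place, model 189 averaged 25.6 CPM in Supreme layer 1. Its mean over the Granny Val libraries was 118 ± 171 CPM, and 72 ± 61.9 CPM without layer 4 replicate 2. Among numbered names the mean was 19.9 ± 11.9 CPM in Alachua, 133 ± 219 CPM in Granny Val and 78.5 ± 64.6 CPM in Supreme, and among the others 53.3 ± 25.6 CPM in Alachua, 97.5 ± 83.1 CPM in Granny Val and 99.9 ± 22.1 CPM in Supreme. Alachua was the lowest in both kinds.

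Models 173 and 174 are the coupled members with the steepest differences. Model 174 averaged 1.84 ± 2.99, 1.17 ± 0.768, 0.879 ± 0.762 and 0.796 ± 1.01 CPM in Alachua layers 1 to 4, 2.63 ± 3.07, 4.72 ± 2.39, 28.2 ± 35.1 and 171 ± 231 CPM in Granny Val, with 2.44 ± 1.77, 7.07 ± 6.07, 74.2 ± 83.2 and 19.9 ± 21 CPM in Supreme. Model 173 averaged 2.18 ± 3.77, 0.506 ± 0.407, 0.43 ± 0.4 and 0.734 ± 0.831 CPM in Alachua, 0.139 ± 0.241, 0.523 ± 0.545, 8.65 ± 8.53 and 89 ± 141 CPM in Granny Val, with 1.99 ± 2.03, 2.37 ± 2.38, 27.1 ± 33.9 and 10.9 ± 11 CPM in Supreme. Both were highest in the inner layers of Granny Val and Supreme, and single libraries decide much of these means. Without Granny Val layer 4 replicate 2 the Granny Val mean of model 174 was 16.7 ± 25.6 CPM, against 51.5 ± 123 CPM with it, and that of model 173 was 3.92 ± 5.78 CPM, against 24.6 ± 71.8 CPM. Without Supreme layer 3 replicate 2 the Supreme mean of model 174 was 13.1 ± 17.3 CPM, against 25.9 ± 47.3 CPM with it, and that of model 173 was 5.52 ± 6.62 CPM, against 10.6 ± 18.6 CPM. Without Alachua layer 1 replicate 1 the Alachua mean of model 173 was 0.456 ± 0.518 CPM, against 0.962 ± 1.82 CPM with it. Among numbered names model 174 averaged 0.614 ± 0.703 CPM in Alachua, 83.7 ± 158 CPM in Granny Val and 32.2 ± 53.9 CPM in Supreme, and model 173 averaged 0.366 ± 0.534 CPM in Alachua, 40.2 ± 93.7 CPM in Granny Val and 12.5 ± 21.4 CPM in Supreme. Among the others model 174 averaged 2.84 ± 2.14 CPM in Alachua, 6.51 ± 5 CPM in Granny Val and 7.11 ± 3 CPM in Supreme, and model 173 2.75 ± 3.28 CPM in Alachua, 2.77 ± 2.2 CPM in Granny Val and 4.74 ± 2.72 CPM in Supreme. Among names without a number the means of the cultivars lie closer together, and model 173 was about level in Alachua and Granny Val, but the Supreme libraries there are all of layers 3 and 4 and only 1 Granny Val library is of layer 4. Without the library out of place, Supreme layer 1 averaged 1.48 CPM of model 174 and 0.949 CPM of model 173.

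**Figure D4:**
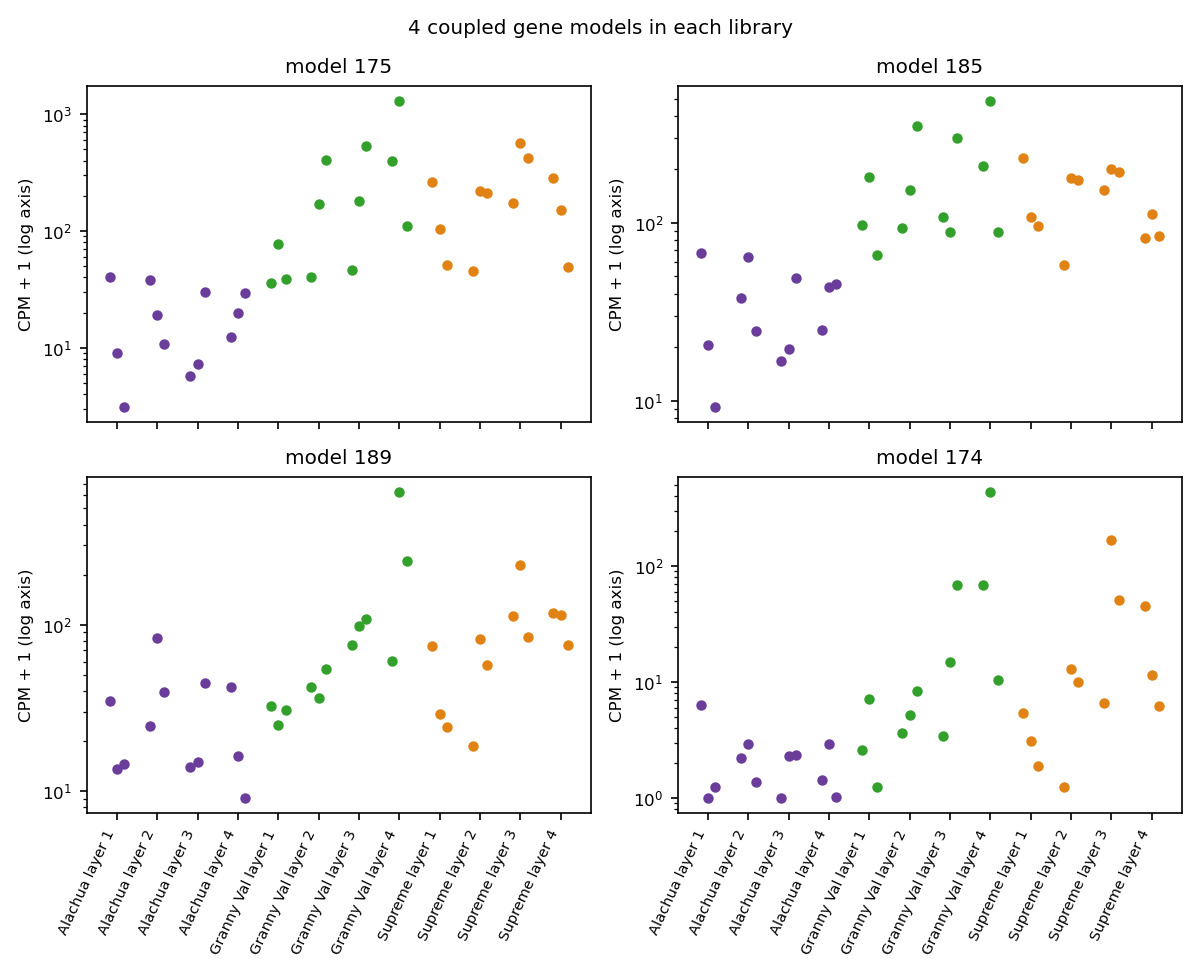
Level of models 175, 185, 189 and 174, the coupled models with the highest means, in each of the 36 libraries, 3 points to a group, on a log axis of CPM + 1. Purple points (Alachua) lie below most green (Granny Val) and orange (Supreme) points in each panel, and the highest point of each panel is Granny Val layer 4 replicate 2, at 1291 CPM for model 175.

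All 11 coupled models had their lowest cultivar mean in Alachua, also without Granny Val layer 4 replicate 2 and without the 6 libraries out of place. This held for all 11 among numbered names and for 10 among the others, where model 190 was highest in Alachua, at 29.2 ± 6.59 CPM in Alachua, 18.6 ± 4.56 CPM in Granny Val and 22.1 ± 4.53 CPM in Supreme. The ratio of the highest to the lowest cultivar mean ran from 1.95 to 44.0. Which cultivar, layer and group was highest depended on Granny Val layer 4 replicate 2. With it, the cultivar mean was highest in Granny Val for 10 models and in Supreme for 1; without it, in Granny Val for 3 and in Supreme for 8. Granny Val was highest for all 11 among numbered names and for 0 among the others, where Supreme was highest for 10. Granny Val layer 4 was the highest of the 12 groups for 9 models with that library and for 2 without it, when Supreme layer 3 was highest for 6. Layer 4 had the highest layer mean for 9 models with it and for 1 without it, when layer 3 was highest for 9. Layer 1 had the lowest layer mean for 9 models with it and for 8 without it. The other 25 members that reached 1 CPM in some group had no such order: Alachua was the lowest cultivar for 7, Granny Val for 12 and Supreme for 6. The coupled models were set apart by their correlation over these same libraries, so this difference is partly a matter of construction.

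In the fit over all gene models, Alachua was set against Granny Val with the 4 layers weighted equally. A model was called when its change was at least 2-fold with an adjusted p under 0.05, by the quasi-likelihood F test of edgeR with Benjamini-Hochberg adjustment over 19241 gene models. Of 38 members tested, 1 was called higher and 10 lower in Alachua; over all gene models 10.7% were called, 5.59% higher and 5.1% lower. Since the members were chosen with these levels known, no more is read from that count. Shares of all gene models called are given for this fit only. Counts from alternative fits stand without such a share, here and below, and nothing is read from how they change. Among numbered names alone 3 were called higher and 10 lower, and without the libraries out of place 1 higher and 10 lower. Of the 11 coupled models, 8 were called lower and all 11 had a negative log2 fold change, with a median of -2.38, against -0.27 for the 38 members and 0.01 for all gene models. These 11 are among the 38 and were chosen by their correlation in these libraries, so their like sign is partly a matter of construction. The smallest adjusted p-values among the lower ones belonged to model 185 (log2 fold change -2.38, SE 0.35, adjusted p = 1.6e-05) and model 175 (log2 fold change -3.51, SE 0.55, adjusted p = 4.2e-05).

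Alachua against Supreme shares the Alachua libraries with that comparison and is not independent of it. There, 1 member was called higher and 9 lower in Alachua, 8 of them coupled, where 6.74% of all gene models were called, 3.12% higher and 3.62% lower. Without the 6 libraries out of place 5 members were called, models 175, 181, 182, 184 and 185, all lower in Alachua, and among numbered names alone 11 were, all coupled and lower. The median log2 fold change was -2.47 over the coupled models, -0.54 over the 38 members and -0.02 over all gene models. For the coupled models, the limit given for Granny Val holds here too. Model 175 (log2 fold change -3.47, SE 0.55, adjusted p = 7.3e-05) and model 185 (log2 fold change -1.99, SE 0.34, adjusted p = 0.00021) had the smallest adjusted p-values by edgeR among the lower ones, and neither lost its call in any alternative.

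The member called higher in Alachua in both comparisons was model 167, at a low level. Its lowest, median and highest libraries were 2.13, 4.07 and 6.48 CPM in Alachua, 0.0597, 1.37 and 3.15 CPM in Granny Val, with 0.402, 1.64 and 3.13 CPM in Supreme. The ranges overlap, with means of 3.96 ± 1.43, 1.49 ± 0.766 and 1.63 ± 0.716 CPM (SD, n = 12 each). Among numbered names the mean was 4.29 ± 1.45 CPM in Alachua, 1.51 ± 0.935 CPM in Granny Val and 1.65 ± 0.836 CPM in Supreme, and among the others 2.98 ± 0.927 CPM in Alachua, 1.46 ± 0.547 CPM in Granny Val and 1.58 ± 0.139 CPM in Supreme, with Alachua highest in both. By edgeR it was higher in Alachua than in Granny Val (log2 fold change 1.47, SE 0.40, adjusted p = 0.0085) and than in Supreme (log2 fold change 1.30, SE 0.39, adjusted p = 0.029). The call against Granny Val was lost among libraries with numbered names alone (log2 fold change 1.37, adjusted p = 0.15). The call against Supreme was lost in 12 of 43 alternatives, among them without the libraries out of place (log2 fold change 1.08, adjusted p = 0.22) and among numbered names alone (log2 fold change 1.27, adjusted p = 0.24). It was also lost without any 1 of 9 libraries: Alachua layer 1 replicate 2, layer 2 replicate 3, layer 3 replicate 1 and layer 4 replicate 1, and Supreme layer 1 replicate 1, layer 2 replicate 1, layer 3 replicate 2 and layer 4 replicates 2 and 3.

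Between Granny Val and Supreme, 2 members were called, both higher in Granny Val, where 4.92% of all gene models were called, 2.06% higher. Among numbered names alone 1 member was called higher (model 215) and 2 lower (models 161 and 220), and without the libraries out of place model 215 was the only 1 called. Model 215 averaged 23.8 ± 5.99, 5.24 ± 5.75, 3.52 ± 3.47 and 7.27 ± 2.57 CPM in Granny Val layers 1 to 4, 0.505 ± 0.18, 0.476 ± 0.478, 0.112 ± 0.127 and 3.84 ± 2.49 CPM in those of Supreme and 0.783 ± 0.679, 0.112 ± 0.157, 0.0351 ± 0.0608 and 0.435 ± 0.421 CPM in those of Alachua. The 12 Granny Val libraries had a lowest, median and highest level of 0.204, 7.07 and 28.9 CPM, and the 12 Supreme libraries of 0, 0.484 and 6.42 CPM, so the ranges overlap. The mean was 9.96 ± 9.36 CPM in Granny Val and 1.23 ± 1.92 CPM in Supreme (SD), and 0.762 ± 1.05 CPM in Supreme without layer 4 replicate 3. Among numbered names the mean was 14.6 ± 9.52 CPM in Granny Val and 0.516 ± 0.466 CPM in Supreme. Among the others it was 3.47 ± 3.86 CPM in Granny Val and 3.39 ± 3.18 CPM in Supreme, about level, but these libraries include none of Granny Val layer 1, where the model is highest, and none of Supreme layers 1 and 2. With the kind of name as a covariate the log2 fold change was 3.72 (adjusted p = 0.0025, edgeR). Granny Val layer 1 was the highest group, and the call by edgeR (log2 fold change 3.72, SE 0.82, adjusted p = 0.0036) was kept in every alternative run, none of which was fitted to names without a number alone. Granny Val is the green cultivar as well as the one of intermediate skin, and these differences cannot be told apart.

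Model 188, the other one, had 0.845 ± 0.751, 0.0402 ± 0.0696, 0.0417 ± 0.0379 and 0.0457 ± 0.0464 CPM in Granny Val layers 1 to 4. In Supreme it had 0 (no counts), 0 (no counts), 0.00696 ± 0.012 and 0.011 ± 0.00959 CPM, from 3 counts in 12 libraries, and in Alachua 0.0641 ± 0.111, 0 (no counts), 1.06 ± 1.81 and 0 (no counts) CPM. The Alachua layer 3 mean of model 188 was 0.0176 CPM without the library out of place. The edgeR call (log2 fold change 4.09, SE 1.27, adjusted p = 0.048) was lost in 34 of 43 alternatives and is not used further. It was lost without any 1 Supreme library, without any 1 Granny Val library but replicate 2 of layers 1 and 2, and without Alachua layer 1 replicates 2 and 3, layer 2 replicates 1 and 2, layer 3 replicate 3 or layer 4 replicate 2. Model 179 was near absent from Alachua, with 3 counts in 12 libraries. It averaged 0 (no counts), 0 (no counts), 0.0176 ± 0.0304 and 0 (no counts) CPM in Alachua layers 1 to 4, 0 (no counts), 0.0588 ± 0.102, 0.0396 ± 0.0687 and 1.17 ± 1.22 CPM in Granny Val, with 0.537 ± 0.468, 0.276 ± 0.478, 0.705 ± 0.313 and 0.155 ± 0.221 CPM in Supreme.

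**Figure D5:**
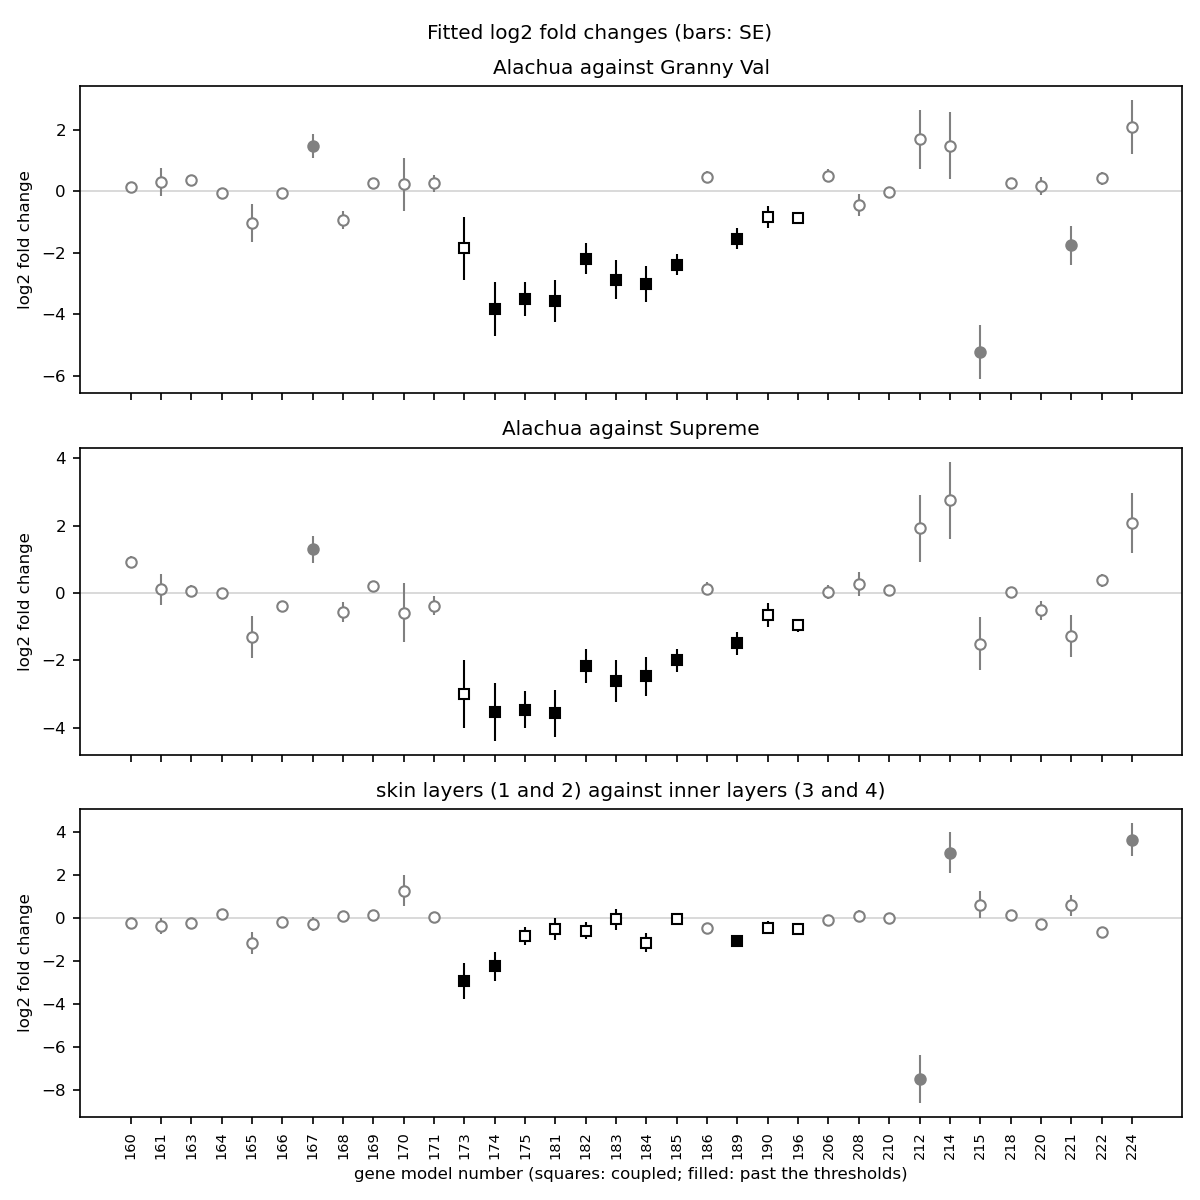
Fitted log2 fold changes with standard errors (bars) of the 34 members that passed the filter with a mean of at least 0.5 CPM, for Alachua against Granny Val (top), Alachua against Supreme (middle) and skin against inner layers (bottom); squares are coupled models and filled symbols passed both thresholds. In the upper panels the squares lie below 0, with medians of -2.38 and -2.47, and in the bottom panel model 212 is the lowest point.

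Skin layers were set against inner layers with the 3 cultivars weighted equally. Of the 38 members, 2 were called higher and 4 lower in skin, where 13.8% of all gene models were called, 7.97% higher and 5.83% lower. Without the libraries out of place 1 was called higher and 5 lower, and among numbered names alone 2 higher and 6 lower. Among the coupled models 3 were called lower in skin, and their median log2 fold change was -0.59. The coupled sum averaged 323 ± 252 CPM in the skin layers and 679.9 ± 860.2 CPM in the inner layers (SD, n = 18 each), and the ranges overlap. In Alachua the skin mean was 131 ± 79.6 CPM and the inner mean 109 ± 43.7 CPM; the Granny Val skin layers averaged 404 ± 297 CPM and the inner ones 1197 ± 1271 CPM. Without Granny Val layer 4 replicate 2 the Granny Val inner mean was 698 ± 396 CPM (SD, n = 5), and the inner mean over all cultivars 503 ± 433 CPM (SD, n = 17). In Supreme the skin mean was 435 ± 234 CPM and the inner mean 735 ± 427 CPM (SD, n = 6 each).

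Model 212 is the member closest to being limited to the inner layers. In the skin layers it had counts in 2 of 18 libraries, both of Alachua, and in the inner layers in 15 of 18. Its inner libraries held 0, 7.57 and 8.27 CPM in Alachua layer 3, 0.53, 0 and 0 CPM in Alachua layer 4, 1.04, 2.16 and 2.31 CPM in Granny Val layer 3, 4.06, 0.4 and 0.557 CPM in Granny Val layer 4, 1.13, 0.722 and 2.86 CPM in Supreme layer 3 and 1.02, 0.473 and 1.51 CPM in Supreme layer 4. The 3 inner libraries at 0 are Alachua layer 3 replicate 1 and layer 4 replicates 2 and 3, all among the libraries out of place. The mean was 0.0192 CPM in skin and 1.92 CPM in the inner layers, and without the libraries out of place 0.00641 CPM in skin and 2.31 CPM in the inner layers. The skin mean was 0.00565 CPM without Alachua layer 2 replicate 3 alone. The fitted fold, which depends on the prior count where groups are at 0, was called (adjusted p = 4.5e-05, edgeR). Without Alachua layer 4 replicate 1, which leaves that group at 0, the adjusted p was 1.

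After model 212, model 189 had the smallest adjusted p among the members called lower in skin, that is, at a change of at least 2-fold. It averaged 38.8 ± 21.9 CPM in the skin layers and 115 ± 143 CPM in the inner ones (SD over 18 libraries), and the edgeR fit gave a log2 fold change -1.06, SE 0.28, adjusted p = 0.0046. Among fits that left out 1 library, its change fell short of 2-fold without Alachua layer 3 replicate 3 (log2 fold change -0.95) and likewise without replicate 1 of Alachua layer 4 (-0.93), replicate 2 of Granny Val layer 4 (-0.88) or replicate 2 of Supreme layer 3 (-0.99). Models 224 and 214 were the ones called higher in skin. Model 224 averaged 13.6 ± 9.04, 1.58 ± 1.7, 2.94 ± 2.96 and 0.79 ± 0.68 CPM in Alachua layers 1 to 4, 6.14 ± 1.87, 1.06 ± 1.36, 0.308 ± 0.291 and 0.0708 ± 0.1 CPM in Granny Val, with 4.82 ± 4.63, 3.3 ± 5.33, 0.186 ± 0.17 and 0.0484 ± 0.0564 CPM in Supreme. Layer 1 was its highest layer in each cultivar. Without the libraries out of place, model 224 averaged 1.35 CPM in Alachua layer 3 and 0.223 CPM in Supreme layer 2 (n = 2 each), where replicate 1 had held 6.12 and 9.45 CPM.

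Over 18 libraries each, model 224 averaged 5.08 ± 5.91 CPM in skin and 0.724 ± 1.48 CPM in the inner layers (log2 fold change 3.66, SE 0.77, adjusted p = 6e-04, edgeR). Without Alachua layer 3 replicate 1, one of the libraries out of place, the inner mean was 0.407 CPM, and without all 6 of them the means were 5.42 ± 6.14 CPM in skin and 0.313 ± 0.608 CPM in the inner layers (SD, n = 15 each). Among numbered names alone its call was lost although the fitted log2 fold change, 4.32, was no smaller. The only numbered library of Granny Val layer 2 is at 0 for model 224, so that fold depends on the prior count. Model 214 averaged 2.46 ± 2.19 CPM in skin and 0.562 ± 0.948 CPM in the inner layers (log2 fold change 3.05, SE 0.94, adjusted p = 0.015, edgeR). Its call was lost without the libraries out of place (log2 fold change 1.89) and without Supreme layer 2 replicate 1 alone (1.68), itself one of them. Either choice leaves model 214 at 0 in Supreme layer 2, where the fitted fold depends on the prior count. These losses are therefore not read as a smaller difference. Without all 6 the means of model 214 were 2.62 ± 2.35 CPM in skin and 0.356 ± 0.679 CPM in the inner layers (SD, n = 15 each).

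Between single layers few members were called. Model 168 was higher in layer 1 than in layer 2, with means of 5.3 CPM in Alachua layer 1 against 0.954 CPM in layer 2, 6.89 CPM in Granny Val layer 1 against 3.48 CPM in layer 2, and 3.09 CPM in Supreme layer 1 against 2.69 CPM in layer 2. The edgeR fit gave a log2 fold change 1.22, SE 0.34, adjusted p = 0.028. It was the only 1 of 38 members called there, where 4.82% of all gene models were called, 2.91% higher and 1.91% lower. Without the libraries out of place 4 were called, models 165, 168, 189 and 224, with 3 higher and 1 lower in layer 1. The call of model 168 was lost in 12 of 43 alternatives, 10 of them without 1 library of these layers: Alachua layer 1 replicate 3 and layer 2 replicates 1 and 3, Granny Val layer 1 replicates 1 and 2 and layer 2 replicates 1 and 2, and Supreme layer 1 replicate 3 and layer 2 replicates 2 and 3. The other 2 were the replicate block (log2 fold change 1.16, adjusted p = 0.066, edgeR) and numbered names alone (log2 fold change 1.30). Layer 2 against layer 3 gave 2 calls, both lower in layer 2, where 5.15% of all gene models were called, 1.62% higher and 3.52% lower. They were model 212 (adjusted p = 0.0049, edgeR) and model 165 (log2 fold change -2.41, SE 0.74, adjusted p = 0.043, edgeR), and both were called without the libraries out of place too. Among numbered names alone model 212 had a log2 fold change of -7.98, near the -8.17 of all libraries, and an adjusted p of 0.24.

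Model 165 averaged 5.71 ± 2.63, 2.16 ± 1.61, 15.4 ± 12.2 and 1.18 ± 1.19 CPM in Alachua layers 1 to 4, 7.49 ± 4.1, 2.26 ± 3.24, 18.2 ± 11.7 and 13.2 ± 5.81 CPM in Granny Val, with 5.78 ± 4.07, 6.64 ± 9.91, 17.3 ± 12.8 and 12.9 ± 5.16 CPM in Supreme. Without the libraries out of place, model 165 averaged 1.24 CPM in Alachua layer 2 and 0.921 CPM in Supreme layer 2. Layer 3 was above layer 2 by the mean in each cultivar, but the libraries overlap in Granny Val and Supreme. Its call was lost in 14 of 43 alternatives, 12 of them without 1 library of these layers (adjusted p up to 0.23): Alachua layer 2 replicates 1 and 2 and layer 3 replicates 2 and 3, Granny Val layer 2 replicates 2 and 3 and layer 3 replicates 1 and 2, and Supreme layer 2 replicates 2 and 3 and layer 3 replicates 1 and 3. Between layers 3 and 4 no member was called by edgeR, where 0.0104% of all gene models were called. At an unadjusted p under 0.05 there were 3 of 38 members, and DESeq2 called 1. Shares of all gene models by these 2 measures are not given, so nothing is read from the counts.

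Whether the contrast of skin and inner layers differed between cultivars was tested as an interaction. No member was called in any of the 3 pairs of cultivars by edgeR. At an unadjusted p under 0.05 there were 7 members for Alachua against Granny Val, 4 for Alachua against Supreme and 1 for Granny Val against Supreme, and DESeq2 called 3, 0 and 0. Over all gene models edgeR called 0.13% for Alachua against Granny Val (0.052% higher and 0.078% lower). It called 0.92% for Alachua against Supreme (0.172% higher and 0.748% lower) and 0.0052% for Granny Val against Supreme. Shares of all gene models at an unadjusted p under 0.05 or by DESeq2 are not given. Nothing is therefore read from the member counts by those measures. The smallest adjusted p among the members for Alachua against Granny Val was that of model 189 (log2 fold change 2.73, SE 0.69, adjusted p = 0.097, edgeR), which was not called; this model was picked after its value was seen.

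The range ends between unlike neighbours. Just outside its lower end, models 155, 157 and 158 averaged 34.2, 4.70 and 21.4 CPM over the 36 libraries, and just inside it, models 160, 161 and 163 averaged 316, 6.35 and 63.5 CPM. At the upper end, models 221, 222 and 224 averaged 1.40, 14.1 and 2.90 CPM just inside, while of the 3 models just outside, model 226 had 6 counts in all libraries, model 227 had 1 and model 228 none.

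Outside the range, the gene models whose log2 level over the 36 libraries was most like the members' summed level were evm.model.chr2.1088 (Pearson r = 0.834), evm.model.chr14.2409 (0.832) and evm.model.chr3.575 (0.831), and the 10 most alike ran down to evm.model.chr9.1298 (0.749). The other 6 were evm.model.chr7.817, evm.model.chr8.1794, evm.model.chr8.1272, evm.model.chr18.716, evm.model.chr9.882 and evm.model.chr8.2086. The coupled sum had closer likes, with evm.model.chr2.490 at 0.904, evm.model.chr13.400 at 0.879 and evm.model.chr2.37 at 0.876. A correlation above 0.8 with the coupled sum was found for 17 gene models outside the range, on 10 chromosomes, so that the pattern is not found on chromosome 4 alone. In Granny Val layer 4 replicate 2, the library with the highest sum of members, evm.model.chr13.400 was at 503 CPM and evm.model.chr2.37 at 476 CPM. These correlations rest on the same 36 libraries and their scaling, and no test was made of them.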

How the data were processed

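Messenger RNA of 36 libraries (3 cultivars, 4 layers, 3 replicates) was sequenced by the authors after poly(A) selection and directional library preparation, per the labels' protocols. The deposited tables hold raw read counts for each gene model, as whole numbers. HTSeq 0.11.2, STAR, cutadapt, DESeq2 and SAMtools are named in the submitters' processing notes without role or order. Genome build, annotation and any counting by strand were not given in the sources used here; without strand, reads of an overlapping antisense gene would be included. The 5 special lines of each table were left out of library sizes and tests: reads outside any gene model came to 7.73% to 14.6%, ambiguous reads to 1.06% to 1.42% and reads without a unique position to 2.36% to 3.33%. Read sharing between near-identical copies was not measured.

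CPM with TMM scaling and all fits were computed here with edgeR 4.0.16 in R 4.3.3. filterByExpr by group left 19241 gene models. One model of 12 group means, with 24 residual degrees of freedom, was fitted to all libraries, and contrasts weighted the groups equally. Log2 CPM for correlations used a prior count of 2. On simulated counts with 50 changed gene models per size, the contrast of Alachua and Granny Val recovered 12 at a log2 fold change of 1 and 44 at 2. The 2-fold minimum by itself removes those fitted below it. The changed gene models were drawn only from those with higher expected counts, and no differences between layers were simulated. The recovery therefore does not cover members at low levels. The library layer check used 310 gene models that were higher in Granny Val layer 1 and 169 that were higher in its inner layers, with the members left out.

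The members and the coupled set were chosen with earlier results of these data known. Members named in every group are the 6 with the highest mean and the 6 with the largest ratio between cultivar or between layer means. The ratios were ranked among members reaching 1 CPM in their highest group. From the fit to all libraries at most 2 identifiers were named as higher and 2 as lower per contrast, by the smallest adjusted p. Members called in an alternative were named without this limit. Alternatives were the test and the size factors of DESeq2 1.42.0, plain library totals (for the sums), no filter, a replicate block, a covariate for the kind of library name, numbered names alone, leaving out the libraries out of place, leaving out model 160 (for the sums) and leaving out each library. The coupled set and the interactions were added after the data were seen.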

Additional observations from a re-analysis of the deposited data

How the results depend on the processing

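Counts of members called kept to within 1.5 times of those reported for Alachua against Granny Val (10 to 12 without any 1 library) and, apart from the 5 called without the libraries out of place, for Alachua against Supreme (9 to 12). Skin against inner layers gave 4 calls without replicate 1 of Alachua layer 4 and 8 without replicate 1 of Alachua layer 1. Granny Val against Supreme gave 1 call with no filter, with DESeq2, under the replicate block, with the name covariate and without the libraries out of place, and 3 among numbered names, where 1 was higher and 2 lower; without 1 library it gave 1 to 2. Layer 1 against layer 2 gave 0 under the replicate block, 4 without the libraries out of place, 1 (lower, model 175) among numbered names, and 0 to 2 without 1 library, with 2 when Alachua layer 1 replicate 1 or Supreme layer 2 replicate 1 was left out. Layer 2 against layer 3 gave 1 with the name covariate, 1 among numbered names and 1 to 2 without 1 library. Layer 3 against layer 4 gave 1 with DESeq2 and 0 without any 1 library. The interaction of Alachua and Granny Val gave 3 with DESeq2, 1 among numbered names and 1 when Alachua layer 3 replicate 3 or layer 4 replicate 1 was left out, against 0 to 0 for the other interactions. The cause of these changes was not tested. No share of all gene models called is given for any alternative, here or below, so nothing is read from the changes.

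No pairing by replicate number was seen: deviations of same-numbered libraries correlated at a median of -0.0114 over 54 pairs (-0.509 to 0.423). Libraries with different numbers correlated at a median of 0.0147 over 108 pairs. Whether replicates share vines or fruit cannot be told from these values. A fit with the replicate block called 10 members for Alachua against Granny Val, 9 for Alachua against Supreme, 1 for Granny Val against Supreme, 0, 2 and 0 for the neighbouring layers from the outside inwards, 5 for skin against inner layers and 0 for each interaction. Under the replicate block model 189 fell below 2-fold between skin and inner layers (log2 fold change -0.98, adjusted p = 0.018), and the calls of model 167 against Supreme (adjusted p = 0.065), model 168 between layers 1 and 2 (0.066) and model 188 (0.071) were lost.

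With plain library totals the sum of the members was 1065 CPM in Alachua layer 1 and 902 CPM in Alachua layer 4. Without model 160 it was 623, 679, 626 and 615 CPM in Alachua layers 1 to 4, 724 CPM in Granny Val layer 1 and 1173 CPM in Granny Val layer 3, and among numbered names Granny Val layer 2 held 1630 CPM. Leaving out 1 library gave 1015 to 1042, 975 to 1047, 1043 to 1130 and 931 to 974 CPM in Alachua layers 1 to 4, 1052 to 1128, 1080 to 1412, 1437 to 1882 and 1576 to 3119 CPM in those of Granny Val, and 962 to 1267, 1062 to 1303, 1545 to 1979 and 1152 to 1382 CPM in those of Supreme. Depth limits the members under 1 CPM, where a library with no count allows up to 0.144 CPM.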
